A study of Mus musculus with 30 samples.

Results

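Dendritic cells lacking Rubcn were compared with wild-type cells after both had been given ovalbumin protein (OVA) for 30 min. The comparison rests on 6 of the 30 RNA sequencing libraries of the study, 3 of knockout (KO) and 3 of wild-type (WT) cells, chosen by their titles, and on all 14808 genes that passed a filter on low counts, of 25611 gene rows. Cells were differentiated from mouse bone marrow for 6 to 7 days with FLT3L at 200 ng/ml, a cytokine that yields plasmacytoid dendritic cells and both types of conventional dendritic cell. By the labels, the groups differ in genotype, Rubcn KO or WT, and share the culture protocol and the OVA treatment. The labels used here do not give the deleted part of the gene, the strain, age or sex of the mice, the OVA dose, or whether the replicates came from separate mice. The p-values set differences against the spread between libraries within groups, and that spread may be technical. Untreated cells and cells given OVA for 4 h, with 3 libraries per genotype each, serve below to place the comparison. The 12 libraries given apoptotic Jurkat cells enter only the filter on low counts, the scaling and the estimate of the spread. Without these 12 libraries, 14194 genes passed the filter, so some genes tested passed it through other groups.

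Rubicon, the protein encoded by Rubcn, binds the Beclin 1 lipid kinase complex. It restrains canonical autophagy and is needed for LC3-associated phagocytosis, in which LC3 is placed on phagosomes that carry engulfed cargo, in a step that also needs the NADPH oxidase NOX2. OVA, a hen egg protein, is a model antigen that dendritic cells take up and present on MHC molecules. Type I interferons signal through the receptor IFNAR and the kinases JAK1 and TYK2 to transcription factors, among them IRF9, that bind interferon-stimulated response elements (ISRE) in the promoters of antiviral genes.

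The libraries of KO held 46381915, 42799105 and 9734778 counts, and those of WT 45654203, 47264222 and 44898305 counts. KO replicate 3 was thus the shallow one, with counts for 15196 genes against 16527 to 16664 in the other 5. Levels are given as CPM, a gene's count relative to the scaled total of its library. A level of 3 counts was 0.290 CPM in that library and 0.061 to 0.066 CPM in the others. On the first principal component of the 6 libraries, with 53.1% of the variance, KO replicate 1 stood at -4.94, KO replicates 2 and 3 at -16.9 and -16.1, and WT at 11.9 to 13.6. Markers of dendritic cells were present in both genotypes: Flt3, the FLT3L receptor, ran from 520 to 564 CPM, Itgax, which encodes CD11c, from 479 to 506 CPM, and Irf8, a transcription factor of dendritic cells, from 1830 to 2082 CPM, each with overlap between the genotypes.

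Rubcn itself (Entrez 100502698, mm10 chromosome 16, 32821702 to 32868366) stood at 74.7, 74.7 and 73.0 CPM in KO and at 81.3, 88.3 and 93.0 CPM in WT. KO was lower without overlap and kept 84.7% of the WT level, so most reads of the gene remained. By edgeR's quasi-likelihood test the log2 fold change was -0.24 (SE 0.05, FDR 0.00148), and with every library thinned to the depth of KO replicate 3 the FDR was 0.0702. A count over the whole gene does not show which exons the reads came from, so the genotype labels were checked only in part.

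Between the genotypes 1834 genes (12.4% of those tested) were called by edgeR's quasi-likelihood test at a false discovery rate (FDR) under 0.05. Of these, 926 (6.25%) were higher in KO and 908 (6.13%) lower, so that 50.5% of the calls were higher. That balance moved with the scaling: 63.8% of the calls were higher with total counts, 41.4% with DESeq2's size factors and 40.6% with DESeq2. The 3 KO libraries lay wholly above or below the 3 WT libraries for 1709 of the called genes (93.2%), against 28.7% of all genes tested. The calls rest on the same libraries, so this separation is a description and not independent evidence. Most changes were small: the median size over called genes was 0.33 on the log2 scale, or 1.26-fold, and 162 genes changed at least 2-fold, 122 of them higher and 40 lower. Leaving out KO replicate 2 left 718 calls, leaving out WT replicate 2 left 1075, and thinning all libraries to the depth of KO replicate 3 left 799.

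A large group among the lower genes was the interferon-stimulated genes. Of 66 members tested of a list of 70 (Ifi44l had 0 counts, and 3 others were not analysed here), 50 fell in KO and none rose, and all 66 had a negative log2 fold change, against 6.13% of all genes called lower. The median log2 fold change of the members was -0.66, against -0.0015 over all genes tested, and the median member kept 62.7% of its WT level. Of the 50, 18 fell at least 2-fold. The libraries of KO lay below those of WT without overlap for 63 of the 66, against 14.9% of all genes tested. Leaving out any 1 of the 6 libraries left 39 to 49 members called lower. This list was written with earlier results of these data known, so its direction is a description and not independent evidence.

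**Figure D1:**
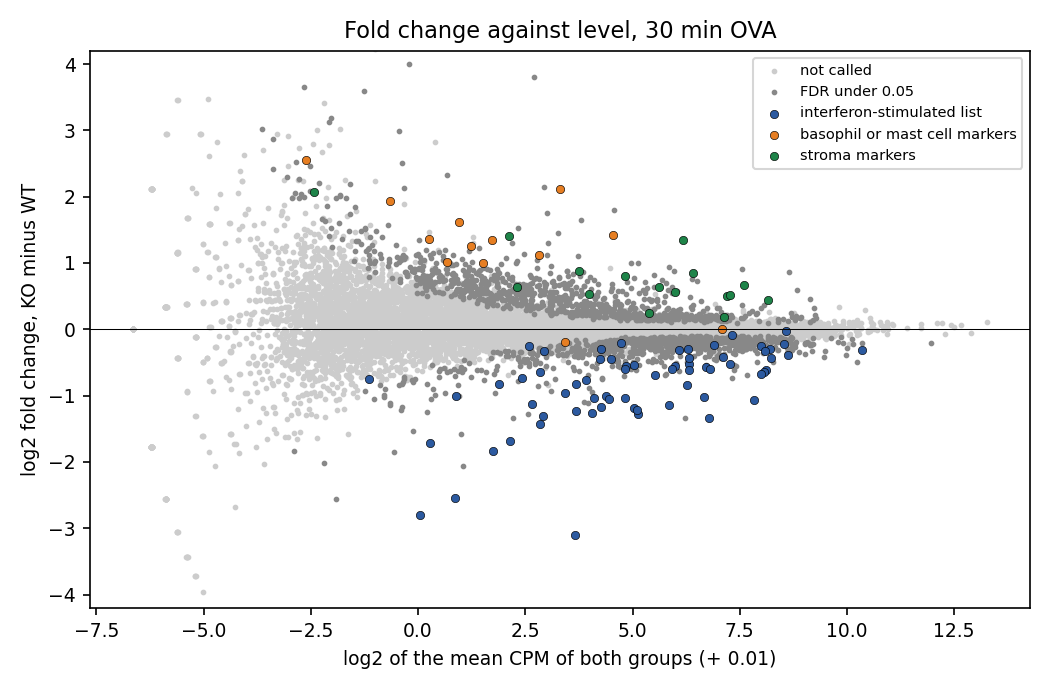
The log2 fold change of KO against WT after 30 min of OVA (vertical axis) is plotted for each of the 14808 genes tested against the log2 of its mean CPM with 0.01 CPM added (horizontal axis), with 8 genes beyond ±4.2 not drawn. The interferon-stimulated members (blue) lie below 0 and the stroma markers (green) above it, and most basophil or mast cell markers (orange) lie above 0.

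The promoters of these genes are known for the ISRE, whose core was searched as GAAANNGAAA, or TTTCNNTTTC on the other strand, where N is any base and matches may overlap. Among tested genes with a RefSeq promoter sequence (GRCm38.p6), 399 of 11595 (3.44%) held the core in the 250 bases before the start of the gene. Of the interferon-stimulated members with a promoter sequence, it was held by 15 of the 34 called lower (44.1%) and by 9 of the 16 not called (56.25%). Of the 10 largest falls described next, 8 have a promoter sequence and 5 of these hold the core: Ddx60, which is not in the list, and the 4 list members below, shown with up to 30 bases on either side, 5′ to 3′ along the gene's strand, with every match in capitals.
Oas1g, minus strand, chr5:120887614-120887661: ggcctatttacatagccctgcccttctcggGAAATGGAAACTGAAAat
Ifit3, plus strand, chr19:34583343-34583446: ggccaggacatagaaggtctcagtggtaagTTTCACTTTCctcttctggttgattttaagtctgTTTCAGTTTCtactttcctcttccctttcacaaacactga
Oas3, minus strand, chr5:120777695-120777764: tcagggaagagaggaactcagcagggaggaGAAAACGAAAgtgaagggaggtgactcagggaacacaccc
Isg15, minus strand, chr4:156200845-156200926: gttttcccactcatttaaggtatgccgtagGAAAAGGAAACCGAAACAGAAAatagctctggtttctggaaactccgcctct
In Oas1g the 2 overlapping matches lay 18 to 3 bases before the start, in Isg15 the 3 overlapping matches 78 to 57 bases before it, and in Oas3 the match 75 to 66 bases before it. Ifit3 held 2 separate matches on the other strand, between 156 and 113 bases before the start. A match is a description of these letters and not a shown binding site.

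Ifi44, an interferon-induced gene of the antiviral response (Entrez 99899, mm10 chromosome 3, 151730923 to 151749959), fell most among called genes with at least 5 CPM in WT and no overlap, from which the 10 largest falls were taken. It stood at 2.98, 2.10 and 3.09 CPM in KO and at 22.7, 19.7 and 25.1 CPM in WT, so that WT was 8.27-fold higher. The log2 fold change was -3.11 (SE 0.27, edgeR FDR 3.41e-09). The 3 libraries of each genotype stood close together, far from those of the other.

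The OAS enzymes make the second messenger that activates RNase L against viral RNA. Oas1g was at 1.53, 1.49 and 1.25 CPM in KO and at 4.87, 5.02 and 6.05 CPM in WT, a log2 fold change of -1.84 (SE 0.20, edgeR FDR 2.67e-07). Oas3 was at 21.9, 19.1 and 19.9 CPM against 45.3, 45.7 and 57.5 CPM, a log2 fold change of -1.28 (SE 0.17, FDR 6.37e-06). Oasl2, a related gene, was at 23.5, 19.2 and 18.1 CPM against 43.9, 41.8 and 59.6 CPM, a log2 fold change of -1.22 (SE 0.21, FDR 0.000189). Each WT library stood above each KO library, as the choice of these falls required, and WT replicate 3 was the highest for all 3 genes.

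Isg15, a ubiquitin-like protein that is attached to other proteins after interferon, stood at 8.62, 6.95 and 6.95 CPM in KO and at 14.5, 15.9 and 23.7 CPM in WT (log2 fold change -1.23, SE 0.37, edgeR FDR 0.0266). Ifit3, a member of a family that binds viral RNA, stood at 4.32, 3.61 and 3.47 CPM against 9.11, 8.81 and 13.7 CPM (log2 fold change -1.43, SE 0.44, FDR 0.0322). Both calls were lost when any 1 KO library or WT replicate 3 was left out, with FDRs of 0.103 for Isg15 and 0.104 for Ifit3 without WT replicate 3. Thinning the libraries to the depth of KO replicate 3 also lost both calls. WT replicate 3 held the highest WT value for 62 of the 66 members (93.9%), against 35.1% of all genes tested. KO replicate 1 held the highest KO value for 47 of the 66 (71.2%), against 34.2% of all genes. That KO replicate 1 lay below every WT library for 63 of the 66 restates the absence of overlap given above.

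Ifi27l2a, a mitochondrial protein of the interferon response, fell from 149.9, 142 and 183 CPM in WT to 65.3, 59.3 and 65.0 CPM in KO (log2 fold change -1.33, SE 0.10, edgeR FDR 3.13e-10). Ly6a, the Sca-1 surface antigen, fell from 307, 291 and 323 CPM to 161, 142 and 138 CPM (log2 fold change -1.06, SE 0.08, FDR 3.13e-10). Ly6c2, a Ly6C surface antigen of monocytes and plasmacytoid dendritic cells that is not in the interferon list, fell from 100.2, 108 and 114 CPM to 47.0, 38.3 and 42.6 CPM (log2 fold change -1.33, SE 0.08, FDR 1.53e-11). In each case every KO library was below every WT library, and KO held 39.6% to 47.8% of the WT mean. Rtp4, a chaperone of receptors, and Ddx60, an RNA helicase of antiviral sensing, completed the 10 largest falls with log2 fold changes of -1.26 and -1.28. How reads shared by near-identical copies were counted is not given in the sources used here, so levels of Oas1g, Ifit3, Ly6a, Ly6c2 and the class I genes below are uncertain.

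**Figure D2:**
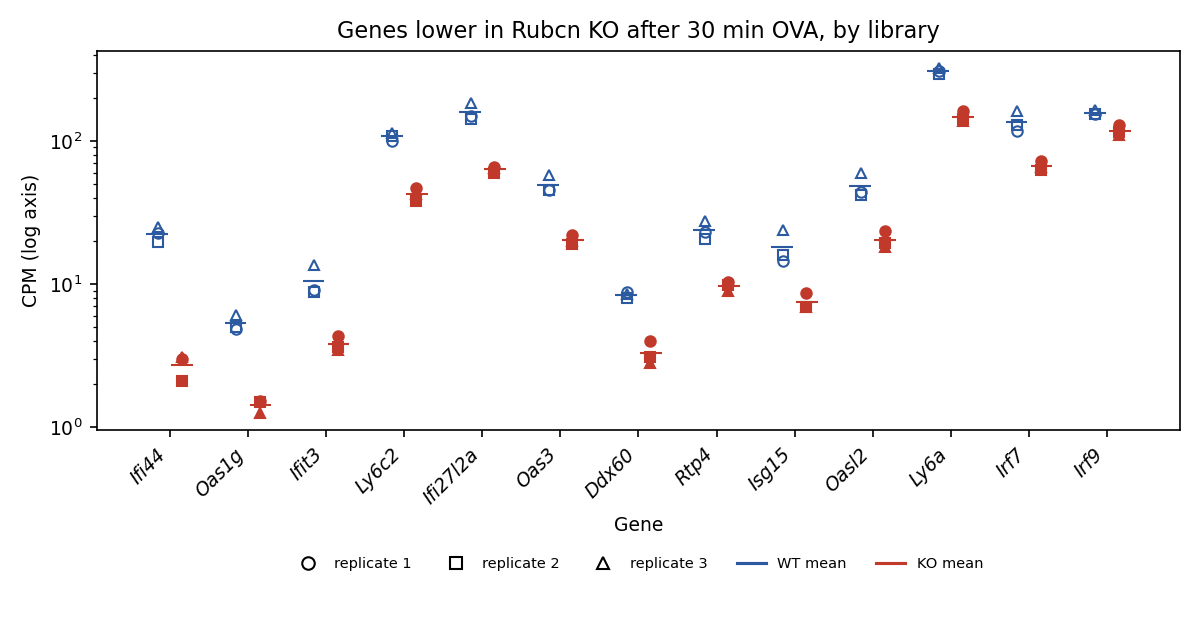
CPM on a log axis is plotted for the 10 largest falls and for Ly6a, Irf7 and Irf9, with 1 symbol per library, WT open and blue, KO filled and red, and a line at each group's mean. No KO symbol reaches the WT symbols of its gene, which was a condition for choosing the 10 falls. WT replicate 3 (triangle) is the highest WT symbol for 12 of the 13 genes.

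The 16 interferon-stimulated members that were not called included some with large differences. Named after their values were seen, Rsad2 (viperin) stood at 3.48 to 5.69 CPM in KO and 8.40 to 12.7 CPM in WT, with a log2 fold change of -1.30 and an FDR of 0.143, and Ifit1 at 3.70 to 4.32 CPM against 6.91 to 11.2 CPM, with -1.13 and 0.160. Of the 16, 13 had libraries without overlap. The immunoproteasome subunit Psmb8, at 372 to 379.6 CPM in KO and 370.6 to 398 CPM in WT, was closest to 0, with a log2 fold change of -0.02 (95% interval -0.10 to 0.06, FDR 0.793).

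Of 30 tested ligands, receptors and signalling proteins of the interferon pathway, 10 fell (33.3%, against 6.13% of all genes), 2 rose and 18 were not called. The median log2 fold change was -0.09. Irf7, the factor that amplifies interferon production, fell from 118, 128 and 161 CPM to 72.1, 62.9 and 65.2 CPM (log2 fold change -1.02, SE 0.16, edgeR FDR 5.24e-05). Stat2 and Irf9, transcription factors that act at the ISRE, had log2 fold changes of -0.33 and -0.42, with FDRs of 0.00139 and 4.93e-07. Of the 30 genes 4 are also in the list of interferon-stimulated genes, Irf7, Stat2 and Irf9 among them. Irf1 fell less, with a log2 fold change of -0.27 (FDR 0.000304). Both receptor chains were lower, Ifnar1 with a log2 fold change of -0.21 and Ifnar2 with -0.16, and so were the DNA sensor cGAS (Mb21d1, -0.29) and the kinase Tbk1 (-0.19). Jak1, Tyk2, Irf3 and the adaptors Mavs, Tmem173 (STING) and Myd88 were not called, with log2 fold changes between -0.07 and 0.07. Transcripts of interferon alpha and beta were hardly seen: the 12 tested genes summed to 0 to 0.0437 CPM in the KO libraries and 0.0639 to 0.125 CPM in the WT libraries, a handful of counts, so no fold is given and a difference in the ligands was not detectable at this depth.

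MHC class I presents peptides to CD8 T cells. Of 34 tested genes in a broad list of class I presentation, 10 fell in KO (29.4%, against 6.13% of all genes) and none rose. The list also holds proteasome subunits, chaperones and genes of vesicle traffic. H2-Q4 fell from 90.9, 97.8 and 98.8 CPM to 59.2, 64.0 and 66.5 CPM (log2 fold change -0.61, SE 0.05, edgeR FDR 3.41e-09). B2m, the light chain shared by class I molecules, fell from 1444, 1402 and 1399 CPM to 1025, 982 and 1014 CPM (-0.49, SE 0.05, FDR 1.43e-07), and H2-K1 and H2-D1 had log2 fold changes of -0.39 and -0.33. The KO libraries of all 4 genes lay below all of their WT libraries. The peptide transporter Tap1 (-0.22) and the class I transactivator Nlrc5 (-0.54) were among the other 6 members that fell. The median over the 34 members was -0.08, and 3 of them (Psmb8, Psmb9 and Tap1) are also in the interferon-stimulated list.

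Of 18 class II presentation genes, 3 rose (6.25% of all genes did) and 1 fell (6.13% of all genes did), with a median log2 fold change of 0.09, and 5 were called higher with total counts. H2-DMb2, a chain of the peptide exchange factor H2-DM, rose from 70.5, 72.8 and 75.0 CPM to 89.4, 93.9 and 90.8 CPM (log2 fold change 0.33, SE 0.04, edgeR FDR 9.95e-06). Ifi30, a thiol reductase of antigen processing, rose by a log2 fold change of 0.20 (FDR 0.00433). Ctsl, a lysosomal protease, fell by 0.31 (FDR 0.00397). The class II chain H2-Ab1 and the invariant chain Cd74 had log2 fold changes of 0.09 (FDR 0.213) and 0.11 (FDR 0.160).

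Genes of the early response to stimulation moved in both directions. Of 49 immediate-early genes, 10 fell and 5 rose, against 6.13% and 6.25% of all genes, with a median of -0.04. Without KO replicate 2, 6 were called lower and 1 higher, and 8 were called higher without KO replicate 1 and 3 without WT replicate 3. Klf4, a zinc finger factor, fell from 116, 128 and 121 CPM to 97.9, 94.98 and 104 CPM (log2 fold change -0.30, SE 0.05, edgeR FDR 3.67e-05). The small GTPase gene Rhob rose from 23.04, 18.3 and 18.5 CPM to 26.0, 30.0 and 29.0 CPM (0.50, SE 0.09, FDR 0.000255). For both genes the libraries did not overlap.

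Among 39 cytokine and chemokine genes 6 fell and 4 rose, against 6.13% and 6.25% of all genes, with a median of -0.14, and 3 were called lower without KO replicate 1 or without KO replicate 2. Cxcl2, a chemokine that attracts neutrophils (Entrez 20310, mm10 chromosome 5, 90903899 to 90905938), stood at 9.56, 9.86 and 7.72 CPM in KO and at 22.1, 19.9 and 18.4 CPM in WT. WT was 2.22-fold higher, with a log2 fold change of -1.10 (SE 0.14, edgeR FDR 4.23e-06), and every KO library was below every WT library. Ccl5, a chemokine for T cells, fell by 0.41 on the log2 scale (FDR 0.000144), and the growth factor Csf1 rose by 0.45 (FDR 6.74e-05). Tnf, named after its values were seen, fell from 51.1 to 56.1 CPM in WT to 36.8 to 42.6 CPM in KO (-0.47, FDR 0.00104). The inflammatory cytokine genes Il6, Il1b and Il12b were not called, with log2 fold changes of 0.25, 0.10 and -0.15 and FDRs of 0.912, 0.717 and 0.807.

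Of 32 genes of dendritic cell maturation 7 fell and 2 rose, against 6.13% and 6.25% of all genes, with a median of -0.16, and 4 were called lower without KO replicate 1 or without WT replicate 2. Samsn1, Birc2 and Tmem123 fell by 0.31, 0.23 and 0.31 on the log2 scale, with edgeR FDRs of 0.00129, 0.00261 and 0.00374. Among 21 Toll-like receptor genes and adaptors 3 fell (14.3%, against 6.13% of all genes) and none rose. The log2 fold change was negative for 17 of the 21, with a median of -0.09. The count called lower was 1 without KO replicate 2 and 8 with DESeq2. Tlr7, the endosomal receptor for single-stranded RNA, fell from 149.6, 146 and 133 CPM to 115, 92.4 and 102 CPM (-0.47, SE 0.09, FDR 0.000663), without overlap.

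Of 44 autophagy genes 4 fell and 1 rose, or 11.4%, a share near the 12.4% of all genes called, and 2 were called lower without KO replicate 2. Uvrag, a partner of Beclin 1 that Rubicon also binds, stood at 208, 204 and 202 CPM in KO and at 222, 241 and 226 CPM in WT (log2 fold change -0.17, SE 0.04, edgeR FDR 0.00379). Rubcnl, which encodes the Rubicon relative Pacer, fell by 0.18 (FDR 0.00488), a call lost without KO replicate 2 (FDR 0.0841). Among 10 genes of NOX2 and its activators, 2 fell, against 6.13% of all genes: Cybb, the catalytic subunit, went from 814, 819 and 749 CPM in WT to 662, 587 and 659.8 CPM in KO (-0.32, SE 0.07, FDR 0.0015), and Rap1a, a small GTPase that activates it, had an FDR of 0.0445, a call lost without KO replicate 2 (FDR 0.259), KO replicate 3 (0.0627), WT replicate 1 (0.214) or WT replicate 2 (0.127). Rap1a was also not called with total counts, with genes kept only at 5 CPM or more in 3 libraries, or with thinning. Of 49 lysosomal genes 3 rose and 4 fell, or 14.3%, near the 12.4% of all genes called, and without KO replicate 2 none rose and 1 fell. The count of falls was also 1 without WT replicate 1 or without WT replicate 2 and was 2 without KO replicate 3, and 1 gene rose without WT replicate 2.

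Of 28 genes of cholesterol and fatty acid synthesis 6 rose (21.4%, against 6.25% of all genes) and none fell, and the desaturases Scd1 and Scd2 rose with the smallest FDRs. Scd1, which makes monounsaturated fatty acids, rose from 4.84, 4.43 and 4.73 CPM to 9.78, 12.5 and 12.7 CPM (log2 fold change 1.30, SE 0.11, edgeR FDR 5.9e-09). Scd2 rose from 482, 494 and 456 CPM to 691, 651 and 618 CPM (0.45, SE 0.05, FDR 1.59e-06). Neither gene had overlapping libraries. In untreated cells 21 of the 28 were called higher in KO, with a median log2 fold change of 0.24, against 0.08 after 30 min of OVA. The difference between the conditions was negative for 26 of the 28 and had an unadjusted p under 0.05 for 14 of them, against 5.37% of all genes tested, but no member passed the FDR threshold. The list was not tested as a set. After 30 min of OVA 3 members were called higher without WT replicate 1, and 10 with total counts or with the filter at 5 CPM.

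Genes of phagocytic receptors and bridging proteins differed in both directions. Mfge8, a bridging protein that binds phosphatidylserine, rose from 77.1, 61.9 and 66.4 CPM to 111, 118 and 109 CPM (log2 fold change 0.72, SE 0.10, edgeR FDR 8.08e-06). Clec9a, a receptor of type 1 conventional dendritic cells for exposed actin, fell from 159, 160.1 and 158 CPM to 131, 112 and 128 CPM (-0.37, SE 0.05, FDR 3.2e-05). Itgae, the CD103 integrin of the same cells, rose from 22.9, 27.5 and 20.5 CPM to 46.4, 52.2 and 41.6 CPM (1.01, SE 0.09, FDR 8.42e-09). Itgae is not in the list of phagocytic receptors, and it was named after its values were seen. Of 36 phagocytic receptor genes 4 rose and 4 fell, against 6.25% and 6.13% of all genes. Without KO replicate 2, 2 were called higher and 1 lower, and 2 were called lower without KO replicate 1 or without WT replicate 1.

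Among the largest rises was Mid1, an E3 ubiquitin ligase on microtubules (Entrez 17318, mm10 chromosome X, 169685199 to 169990797). It stood at 12.1, 12.0 and 13.2 CPM in KO and at 2.72, 2.75 and 2.85 CPM in WT, 4.48-fold higher in KO, with a log2 fold change of 2.14 (SE 0.08, edgeR FDR 3.04e-17). The spread within each genotype was small beside the difference. Of 5 tested sex-linked genes (Xist and Y-linked genes) none was called.

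Mcpt8 and Prss34 are in the list of basophil or mast cell markers, and Jchain is in that of B or plasma cells. In bulk RNA, more or fewer cells of a type cannot be told apart from more or less RNA per cell. Mcpt8, a basophil protease, stood at 16.5, 15.2 and 16.3 CPM in KO and 3.47, 2.94 and 4.68 CPM in WT (log2 fold change 2.11, SE 0.18, edgeR FDR 3.41e-09). Prss34, another basophil protease, was at 36.0, 32.6 and 33.7 CPM against 13.2, 9.81 and 15.2 CPM (1.42, SE 0.16, FDR 4.89e-07). Jchain, the joining chain of polymeric antibodies, was at 14.9, 10.9 and 11.4 CPM against 4.39, 2.83 and 4.00 CPM (1.75, SE 0.14, FDR 6.22e-10). For all 3 genes every KO library stood above every WT library, a condition for their choice among the 10 largest rises.

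Of 13 tested markers of basophils or mast cells 11 rose and none fell, against 6.25% of all genes called higher. Their summed level was 228, 224 and 228 CPM in KO and 169.6, 179.7 and 182 CPM in WT, without overlap (p = 0.1 by a two-sided exact permutation test, the lowest value possible with 3 libraries a group). Kit, the receptor for stem cell factor, made up most of the sum and did not differ beyond its spread (133 to 139 CPM against 128 to 145 CPM, FDR 0.999). Without Kit and Ccl3, a choice made after their values were seen, the sum was 83.7, 76.2 and 78.6 CPM in KO and 29.7, 23.3 and 34.1 CPM in WT. The mast cell proteases Mcpt4, Tpsb2, Tpsab1 and Cma1 had 0 counts in all 6 libraries. Most of these markers are low: with genes kept only at 5 CPM or more in 3 libraries, 5 were called.

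Markers of stroma, the fibroblast-like cells of bone marrow, rose for 11 of 16 (68.8%, against 6.25% of all genes) and fell for none. Their sum was 1341, 1740.5 and 1569.6 CPM in KO and 1063, 1031 and 1058 CPM in WT, without overlap (exact permutation p = 0.1). Col1a1, a chain of type I collagen, stood at 214, 254 and 241 CPM in KO and at 149.9, 139.8 and 157 CPM in WT (log2 fold change 0.66, SE 0.09, edgeR FDR 8.67e-06). Col3a1, of type III collagen, was at 54.5, 171 and 83.5 CPM against 38.2, 41.9 and 42.9 CPM (1.35, SE 0.29, FDR 0.00188). KO replicate 2 was the highest KO library for 13 of the 16 markers (81.3%), against 31.3% of all genes tested, and KO replicate 1 the lowest for 13.

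Sfrp4, a secreted inhibitor of Wnt signalling and the largest rise among called genes with at least 5 CPM in KO and no overlap, depended on KO replicate 2: it stood at 1.61, 27.6 and 6.85 CPM in KO and at 0.936, 1.06 and 0.724 CPM in WT (log2 fold change 3.81, SE 0.99, edgeR FDR 0.0108). Without KO replicate 2 its log2 fold change was 1.72 (FDR 0.493). Ctsk, a collagen-degrading protease, stood at 8.68, 34.3 and 19.7 CPM against 7.84, 6.30 and 5.96 CPM, and Igfbp5, which binds insulin-like growth factors, at 7.03, 23.8 and 11.0 CPM against 5.30, 5.22 and 5.34 CPM. Both followed the same order of KO libraries as Sfrp4. Without KO replicate 2 the calls of Ctsk (FDR 0.513), Wisp2 (0.414), Igfbp5 (0.397), Col3a1 (0.143) and Gas1 (0.306) were lost as well, and those of Ctsk and Wisp2 were also lost without any 1 WT library (FDR 0.0533 to 0.114). Ctsk was not called without KO replicate 3 either (FDR 0.0569). With the libraries thinned to the depth of KO replicate 3, Sfrp4, Ctsk, Wisp2, Igfbp5 and Gas1 were not called, whereas Col3a1 was. Of these 6 genes only Col3a1 is in the list of stroma markers, of which 9 to 12 of 16 were called higher without any 1 library.

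**Figure D3:**
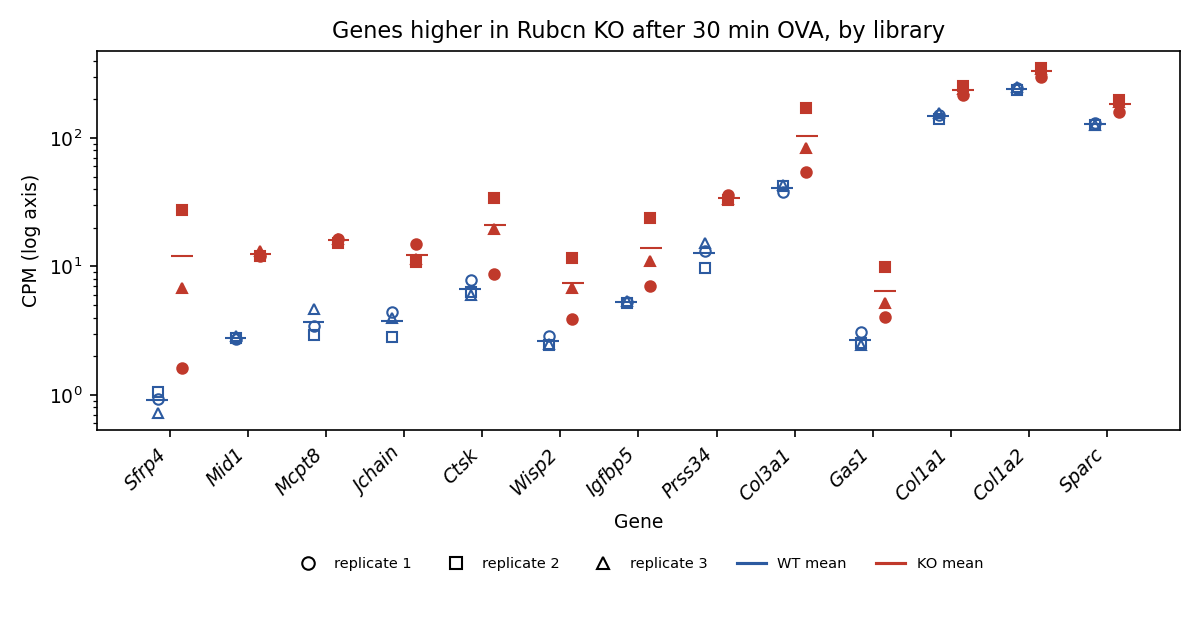
CPM on a log axis is plotted for the 10 largest rises and for Col1a1, Col1a2 and Sparc, with 1 symbol per library, WT open and blue, KO filled and red, and a line at each group's mean. Mid1, Mcpt8, Jchain and Prss34 have close KO symbols, whereas Sfrp4, Ctsk, Wisp2, Igfbp5, Col3a1 and Gas1 are highest in KO replicate 2 (square) and lowest in KO replicate 1 (circle).

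Markers of plasmacytoid dendritic cells, a cell type known for making type I interferon, were lower for 11 of 16 (68.8%, against 6.13% of all genes) and higher for 2. Siglech, a defining surface lectin, stood at 653, 554 and 616 CPM in KO and at 803, 854 and 790.2 CPM in WT (log2 fold change -0.42, SE 0.06, edgeR FDR 1.02e-05). Tcf4, Spib and Runx2, transcription factors of these cells, had log2 fold changes of -0.29, -0.31 and -0.34. Ccr9 and Ly6d were not called (-0.08 and 0.03, FDR 0.537 and 0.791), and Dntt and Cox6a2 rose by 0.75 and 0.43. The summed level was 3298, 2854 and 3160.0 CPM in KO and 3709, 4023 and 3761 CPM in WT, 0.81 times the WT mean and without overlap (exact permutation p = 0.1). The summed level of the interferon-stimulated list was 5969.8, 5553 and 5655 CPM in KO and 7566, 7746 and 8461 CPM in WT, 0.723 times the WT mean. Both sums were lower in KO, KO replicate 1 was highest of the KO libraries in both, and the highest WT library was replicate 2 for the plasmacytoid markers and replicate 3 for the interferon genes. The part of plasmacytoid cells in the interferon result was not tested, and Bst2 stands in both lists.

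Markers of type 1 conventional dendritic cells summed to 6045 to 6344 CPM in KO and 6034 to 6381 CPM in WT (exact permutation p = 0.9), those of type 2 to 3471 to 3528 and 3510 to 3778 CPM (exact p = 0.3), and those of monocytes or macrophages to 5404 to 5659 and 5238 to 5919 CPM (exact p = 0.8). These 3 sums overlapped between the genotypes, but single members were called in both directions. Of 14 type 1 markers 2 rose and 1 fell, and of 14 type 2 markers 3 rose and 2 fell. Of 15 markers of monocytes or macrophages 2 rose and 2 fell. The shares called were 21.4%, 35.7% and 26.7%, against 12.4% of all genes. B cell markers summed to 158 to 175 CPM in KO and 151 to 156 CPM in WT without overlap (exact permutation p = 0.1). Of 12 tested, 5 rose, against 6.25% of all genes, and 3 without KO replicate 2 or without WT replicate 2, and 1 with thinning or the filter at 5 CPM. Ms4a1, which encodes the B cell antigen CD20, stood at 1.12 to 1.33 CPM and was not called (FDR 0.944). Sums without overlap were common and not particular to cell type markers. The sums of the autophagy list (0.978 times the WT mean) and of Zfp zinc finger genes (0.952 times) did not overlap either, each with an exact permutation p of 0.1.

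**Figure D4:**
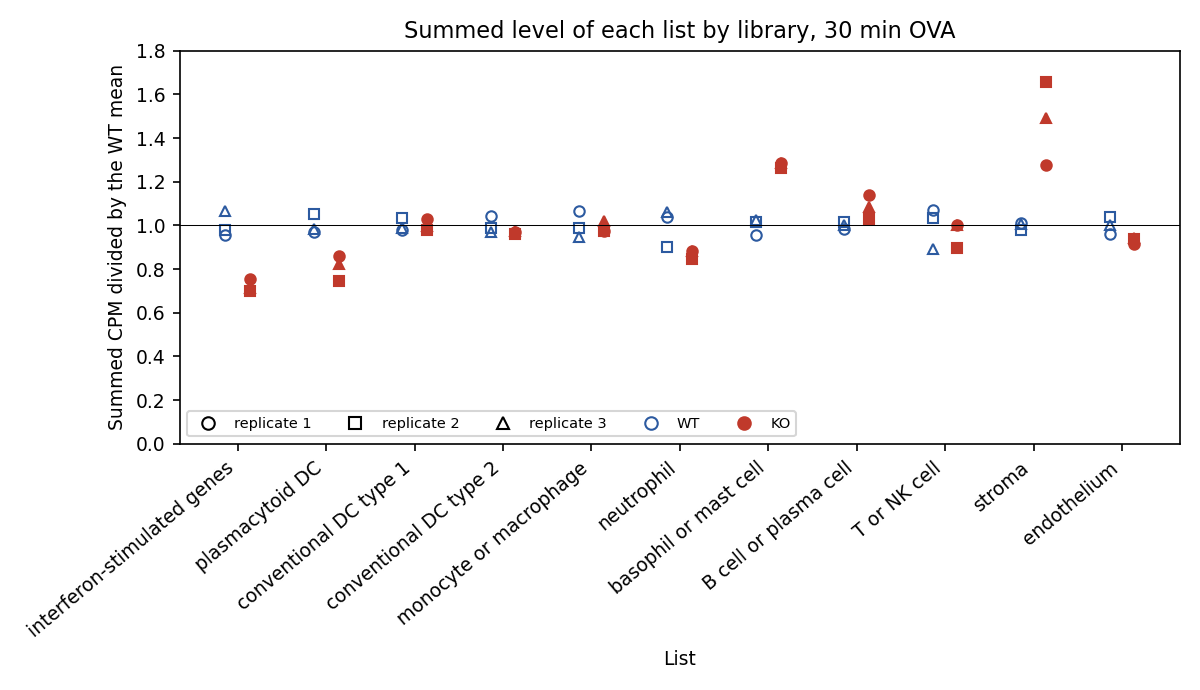
The summed CPM of each list in each library, divided by the mean of the 3 WT libraries, is plotted with WT open and blue and KO filled and red. The interferon-stimulated and plasmacytoid lists lie below 1 in KO, the basophil and stroma lists above it, and the conventional dendritic cell lists around it.

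The same genotypes were then compared without treatment and after 4 h of OVA, with other libraries. The labels do not say whether these share mice or cultures with the libraries at 30 min. KO and WT differed for 1477 genes (9.97%) in untreated cells and for 1861 (12.6%) after 4 h of OVA. Of the 1834 genes called at 30 min, 875 were called in the same direction in untreated cells, which is 47.7% of the calls at 30 min and 59.2% of those in untreated cells. The overlap with 4 h of OVA was 878 genes, 47.9% and 47.2%. In all 3 conditions 659 genes were called in the same direction, 361 higher and 298 lower, and 738 were called at 30 min alone. Of the interferon-stimulated list 58 were lower in untreated cells and 63 after 4 h, against 50 at 30 min. For plasmacytoid markers these counts were 7, 8 and 11. Stroma markers were higher for 12, 9 and 11, and basophil or mast cell markers for 10, 9 and 11, with 1 lower after 4 h. A call in 1 condition and not in another does not show a difference, so the difference itself was tested.

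The genotype difference after 30 min of OVA was distinguished from that in untreated cells for no gene (0% of those tested by edgeR's quasi-likelihood test, smallest FDR 0.751). At an unadjusted p under 0.05 there were 795 genes, 5.37% of those tested, and DESeq2 called 0. For the interferon-stimulated list the median difference between the conditions was 0.06 on the log2 scale, and 1 of 66 members had an unadjusted p under 0.05. Ifi44 had log2 fold changes of -3.11 at 30 min and -3.13 untreated, a difference of 0.03 with a 95% interval of -0.79 to 0.84. For Ly6a the difference was 0.10 (-0.12 to 0.33), and for Oas3 0.26 (-0.20 to 0.73), so these data leave room for differences of such size. Among genes with at least 5 CPM in WT the median half-width of the interval was 0.16.

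Against 4 h of OVA, 2 genes differed (0.0135% of those tested), and 1352 (9.13%) had an unadjusted p under 0.05. Mmp14, a membrane-bound matrix protease (Entrez 17387, mm10 chromosome 14, 54431598 to 54442456), stood at 53.5, 71.6 and 64.7 CPM in KO and at 50.4, 49.7 and 51.4 CPM in WT after 30 min. After 4 h the mean of KO was 105.5 ± 5.25 CPM and that of WT 126.4 ± 6.69 CPM (SD, n = 3). KO was thus higher at 30 min (log2 fold change 0.32) and lower at 4 h (-0.26), a difference of 0.58 (95% interval 0.39 to 0.77, edgeR FDR 0.00904). Without KO replicate 2 the difference was 0.46 (FDR 0.160). The call was also lost without replicate 2 of WT at 30 min (FDR 0.0792) and without replicate 2 of KO at 4 h (FDR 0.0576). Ptges, a prostaglandin E synthase under 5 CPM in each of these groups and named after its values were seen, had log2 fold changes of 1.14 at 30 min and -0.63 at 4 h, a difference of 1.77 (95% interval 1.18 to 2.36, FDR 0.00904).

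**Figure D5:**
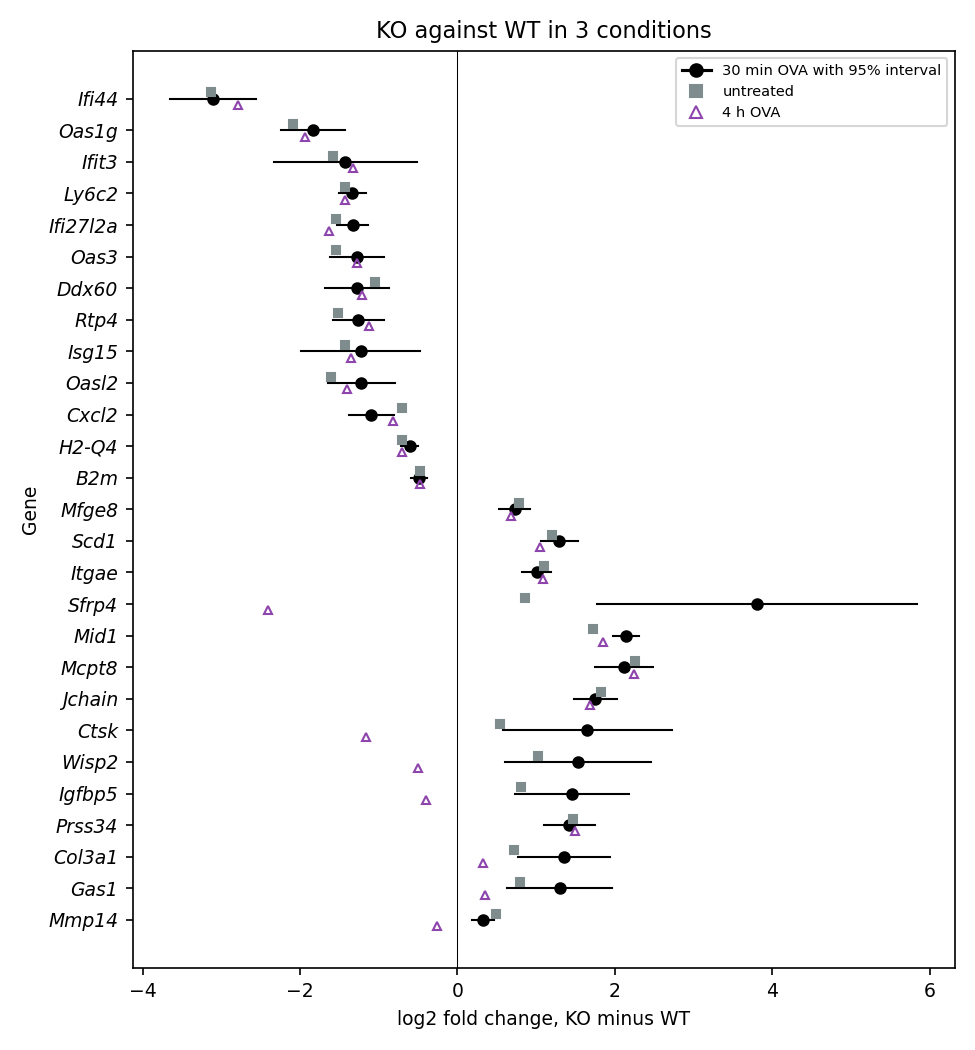
The log2 fold change of KO against WT is plotted for each gene after 30 min of OVA (black circle, line for the 95% interval), in untreated cells (grey square) and after 4 h of OVA (open purple triangle). The interferon-stimulated genes shown, Mid1, Mcpt8, Jchain and Prss34 lie on the same side of 0 in the 3 conditions, while Sfrp4, Ctsk, Wisp2, Igfbp5 and Mmp14 lie below 0 after 4 h.

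Within 10 Mb of Rubcn 19 of 117 tested genes were called (16.2%), 9 higher and 10 lower, against 14.4% of the 472 tested on chromosome 16. A list bearing on RNA quality (histone and small non-coding transcripts, Malat1 and Neat1) gave no call of 13 tested, and neither did 20 heat shock genes. Genes of oxidative phosphorylation, with 3 rises of 73, cytoplasmic ribosomal proteins, with 5 rises of 84, and the cell cycle, with 3 rises and 1 fall of 44, were called in smaller shares than the 12.4% of all genes, and these differences were not tested. Leaving out 1 library moved the rises to between 0 and 5 for oxidative phosphorylation, 0 and 10 for the ribosomal proteins and 1 and 3 for the cell cycle. Log2 fold changes were small but mostly positive for the ribosomal proteins (72 of 84, median 0.06) and oxidative phosphorylation (50 of 73, median 0.03). For the cell cycle 24 of 44 were positive, with a median of 0.01.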

How the data were processed

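Values start from the read counts per gene that the authors deposited as a single table, on mm10 gene models. The submitters' processing notes name STAR 2.5, featureCounts 1.5.0-p1 and DESeq2. Neither annotation release nor strand setting is stated in the labels or notes, so a gene and an overlapping or antisense neighbour cannot be told apart. Libraries were made from total RNA with a TruSeq RNA v2 kit, per the labels' protocols.

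The 30 libraries of 10 groups were fitted together with edgeR 4.0.16 (R 4.3.3, limma 3.58.1), using TMM scaling, filterByExpr by group and the quasi-likelihood F test with Benjamini-Hochberg adjustment over 14808 genes. CPM values use the TMM-scaled totals. A call is an FDR under 0.05. Sums of lists were compared by exact permutation tests, two-sided, which cannot go below 0.1 with 3 against 3 libraries. The code was tested on simulated counts. Alternatives were DESeq2 1.42.0 and its size factors, total counts, other filters, fewer libraries, thinned counts, a replicate block and leaving out each library.

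The members and gene lists were chosen with earlier results of these data known. Genes named by rule were the 10 largest rises and falls called without overlap and with a mean of 5 CPM or more in the higher group, the 4 of each list with the smallest FDRs among those called, the 3 most abundant of each marker list, and genes whose genotype difference changed between conditions. Other genes named beside these were chosen after their values were seen. Some members of the lists are counted but not reported by name here.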

Additional observations from a re-analysis of the deposited data

Results flagged for a closer look

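The genotype difference of 2 genes changed between 30 min and 4 h of OVA by the test of the difference itself. For Mmp14 the log2 fold change at 30 min minus that at 4 h was 0.58 (95% interval 0.39 to 0.77, edgeR FDR 0.00904), and for Ptges it was 1.77 (1.18 to 2.36, FDR 0.00904). Ptges stood at 1.22, 1.81 and 0.965 CPM in KO and 0.728, 0.571 and 0.660 CPM in WT after 30 min, and at 1.76 ± 0.179 and 2.75 ± 0.116 CPM (SD, n = 3) after 4 h. In untreated cells, with other libraries, KO was higher for both genes, with log2 fold changes of 0.48 for Mmp14 and 1.11 for Ptges. Each difference was called in 17 of 22 alternatives. Neither was called without KO replicate 2 at 30 min (FDR 0.160 for Mmp14 and 0.413 for Ptges), without WT replicate 2 at 30 min (0.0792 for both), without KO replicate 2 at 4 h (0.0576 for both), or with the replicate block in the compared libraries (0.0682 and 0.0616). Mmp14 was also not called with the compared libraries alone (0.0689), nor Ptges with all libraries thinned to the smallest total (0.562).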

How the results depend on the processing

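The number of genes called between KO and WT at 30 min was 1834. It was 799 with all libraries thinned to the smallest total, where less depth was left, and from 718 (without KO replicate 2) to 1792 when 1 library was left out; the cause of that range was not tested. With the other settings it lay between 1575 and 2115. The 2 genes that differed from 4 h of OVA became 22 with no filter, 10 without the Jurkat libraries, 40 with DESeq2, 1 with thinning and 0 to 75 when 1 library was left out, and the cause was not tested. No gene differed from untreated cells under any setting.

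Replicate numbers showed no pairing of KO with WT libraries at 30 min. Deviations of same-numbered libraries correlated at 0.0171, 0.00376 and -0.0682, and not every library correlated best with its own number. Pairing by replicate number between conditions within a genotype was not checked. With the replicate block, 1975 genes were called in all 30 libraries and 1686 in the compared libraries, an alternative chosen after seeing the data, and the difference from 4 h gave 2 and 0 genes. Of 108 named genes called, 51 were called in every one of 16 alternatives and none reversed.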
